A study of Mus musculus with 14 samples.

Results

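The comparison described here sets SCp2 cells kept with MMP3 against control cells in experiment A, the first of 2 experiments on this cell line. Its members are the 6 arrays labelled A, of 14 in the series: 1 control dish and 1 MMP3 dish at each of 3 plating densities, 50K, 100K and 250K cells. SCp2 is an established line of mouse mammary epithelial cells. All dishes were 35 mm wide and held DMEM with 2% FCS, treatment lasted 3 days, and 200 ng of total RNA from each dish went on 1 Affymetrix Mouse 430 2.0 array. Control dishes differed from MMP3 dishes, as far as the labels say, only in the agent. No dose of MMP3 is given in the sources used here. Each density therefore gives 1 matched pair of dishes, and nothing in the labels says whether the 3 pairs came from separate cultures. Standard errors (SE) and p-values rest on the spread of the 3 differences between matched dishes, not on repeated dishes. A true change of the effect with density counts as error in them.

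MMP3, also called stromelysin-1, is a secreted protease that cuts extracellular matrix proteins and the outer parts of cell surface proteins, E-cadherin among them. Mammary stroma releases it during branching and involution. In cultured mammary epithelium it is known to loosen cell contacts, to spread the cells and to bring in a splice form of the small GTPase Rac1. Cell density alone also changes epithelial gene expression, through contact signalling and through mechanical pathways, which is why density stood in the model.

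Each value below is a log2 expression value relative to the median of that probe set over all 14 arrays, so it shows a difference between arrays and holds no absolute level. Values for 3 dishes are always given in the order 50K, 100K and 250K. A gene is called when limma, with agent and density as factors and Benjamini-Hochberg adjustment over 11812 genes, gave an adjusted p under 0.05, and rose and fell are used only of called genes. Changes are the mean of the 3 differences of MMP3 minus control on the log2 scale. The 6 arrays limit the precision. The fits without any 1 pair keep 1 residual degree of freedom and called 0 genes in limma, although 2783, 2697 and 4500 genes had an unadjusted p under 0.05 without 50K, 100K and 250K. In RNA of whole dishes, fewer cells of a type and less RNA per cell cannot be told apart.

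Some measures moved with the agent. For Gapdh, whose control probe sets at both ends of the transcript give a sign of RNA quality, the 3′ value minus the 5′ value was between -0.03 and 0.03 in the controls and between 0.04 and 0.17 in the MMP3 dishes, and the 18S control probe set lay between 0.72 and 0.81 in the controls and between 0.88 and 1.07 with MMP3. The same difference for actin lay between -0.05 and 0.11 in the controls and between -0.145 and 0.09 with MMP3, so it overlapped and did not follow that of Gapdh. Their part in the results was not tested. Not all of the 8 arrays of experiment B followed their labels when set against the MMP3 effect of A. Across genes, 4 of them went against their label: 2 labelled control, 50K and 250K, correlated with that effect at r = 0.695 and r = 0.746, and 2 labelled MMP3, 25K and 100K, at r = -0.669 and r = -0.379. The others had r = -0.593 and r = -0.767 for control 25K and 100K, and r = 0.698 and r = 0.393 for MMP3 50K and 250K. Both arrays of each pair of B therefore had r of the same sign. No pair of B set an array on the MMP3 side of A against one on its control side. Of the 1908 called genes, 42.9% had the same sign in B, against 41.2% of all tested genes. The values that follow are those of experiment A. Of the 164 genes chosen for naming, 41 had the opposite sign in every pair of B, as did 487 of the 1908 called genes. Another 294 called genes had the same sign in every pair of A and B. These shares were not counted over all tested genes, so an opposite sign in B does not set a gene apart.

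With density in the model, 1908 of 11812 genes were called, or 16.2%. MMP3 dishes were higher for 1120 of them (9.48% of all tested) and lower for 788 (6.67%). At an unadjusted p under 0.05 the count was 4223 (35.8%), and the smallest adjusted p was 0.0218. The called genes had the same sign in 3 of 3 pairs, 1120 of 1120 upward and 788 of 788 downward. With 3 pairs a call needs differences that lie close together for their size, so this agreement follows from the rule. MMP3 values lay above the control values on all arrays for 2304 genes (19.5%) and below them for 2752 (23.3%), 5056 in all (42.8%), and 1027 of the risen and 682 of the fallen genes were among these. A change of at least 2-fold was seen in 466 risen and 216 fallen genes, and in every single pair in 322 and 125. Interferon-response, antigen-presentation and junction genes, matched by symbol, made up 70 of the rises and 5 of the falls. The account below concerns the other 1050 rises and 783 falls, among which interferon-response genes with other symbols may remain.

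Among the largest rises were surface proteins and secreted factors. Adgrg1, an adhesion G protein-coupled receptor that binds collagen and transglutaminase 2, had relative log2 values of -2.84, -2.73 and -2.09 in the controls and 2.36, 1.82 and 1.83 with MMP3. It rose by 4.56 (SE 0.30, adjusted p = 0.0228 with limma), which is 23.6-fold. Slc4a4, a sodium bicarbonate cotransporter, stood at -1.87, -2.10 and -1.82 in the controls and at 1.93, 2.55 and 2.17 with MMP3. Groups were far apart for both genes, and neither agent showed a trend with density larger than the gap between agents. Slc4a4 rose by 4.15 (SE 0.21, adjusted p = 0.0218 with limma). Ccn2, a matricellular protein also known as CTGF, behaved differently across density. Its values were -0.14, -1.27 and -3.95 in the controls and 3.22, 2.64 and 1.06 with MMP3, so both agents were lower in denser dishes while the groups did not overlap. The rise was 4.09 (SE 0.39, adjusted p = 0.0265 with limma), 17-fold, and the change in B had the opposite sign in every pair.

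St3gal5, which makes the ganglioside GM3 by adding sialic acid to lactosylceramide, went from -1.45, -1.61 and -2.48 in the controls to 2.62, 2.44 and 2.18 with MMP3, a rise of 4.26 (SE 0.17, adjusted p = 0.0218 with limma) or 19.1-fold. Cystm1, a small membrane protein, had the smallest SE of the 15 largest rises, with values of -2.06, -1.95 and -2.003 against 1.87, 1.74 and 1.67. Parm1, a mucin-like membrane glycoprotein, was likewise level within each agent, with -1.02, -1.02 and -1.05 in the controls and 2.71, 2.40 and 2.30 with MMP3. The changes of these last 2 genes were 3.76 (SE 0.08) and 3.50 (SE 0.11). Ctla2a and Ctla2b, which encode inhibitors of cysteine proteases, rose by 4.10 and 3.84, and as close paralogs they may share signal on the array. Chrnb1, a subunit of the muscle acetylcholine receptor, rose by 4.06, Lipk, a lipase known from epidermis, by 3.88, and Tmem140 by 3.87. The other 4 were Crct1, a gene of the epidermal differentiation complex (3.55), Plscr2 of the phospholipid scramblase family (3.52), the Wnt ligand gene Wnt9a (3.38) and Sema4f, a membrane-bound semaphorin (3.21).

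Genes that fell the most included basal epithelial, enzyme and transcription factor genes. Rtl3, an X-linked gene derived from a retrotransposon, had values of 2.08, 2.43 and 1.98 in the controls and -4.15, -3.43 and -2.30 with MMP3. Its fall of 43.9-fold, or -5.46 on the log2 scale (SE 0.48, adjusted p = 0.0258 with limma), was the largest of all tested genes. Krt15, a keratin of basal epithelial cells, was at 0.03, 1.20 and 2.79 in the controls and at -4.38, -3.83 and -1.34 with MMP3. Both agents were higher in denser dishes, and the gap between the agents was similar at each density, with a change of -4.52 (SE 0.21, adjusted p = 0.0218 with limma). Gsta3, a glutathione transferase of the alpha class, was flat across density, with 1.42, 1.36 and 1.03 against -2.62, -3.16 and -2.81, a change of -4.13 (SE 0.16). Bcl11a, a zinc finger transcription factor of mammary progenitor cells, had 0.36, 0.85 and 2.06 in the controls and -2.64, -2.71 and -2.08 with MMP3. Its control values were highest at 250K and the groups did not overlap, with a change of -3.57 (SE 0.27), although the sign was opposite in every pair of B.

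Nrep, the keratin Krt79 and Spon2, a secreted matrix protein, fell, with log2 changes of -3.33, -3.24 and -3.10. Spon2 values were 2.11, 1.74 and 2.14 in the controls and -1.12, -1.28 and -0.91 with MMP3, which is level within each agent. Aldh1l2, a mitochondrial enzyme of folate metabolism, had 0.66, 1.31 and 1.40 against -2.17, -1.88 and -1.73, a change of -3.05 (SE 0.10). Ly6d, a surface protein anchored in the membrane by a lipid, changed by -3.002 and the transcription factor Maf by -2.97. Plxdc1, a plexin domain protein, had 0.19, 0.39 and 1.88 in the controls and -3.59, -2.61 and -0.19 with MMP3, so that its MMP3 value at 250K came close to the control value at 50K. The remaining 4 were the immediate early transcription factor Egr3 (-2.64), Bcat1, which transfers amino groups from branched-chain amino acids (-2.58), Gas1, a membrane-anchored Hedgehog receptor component (-2.54), and the calmodulin-like gene Calml3 (-2.53). Among the 15 largest rises the smallest difference in any 1 pair was 2.69, and among the 15 largest falls it was -1.93.

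The size of some of these changes depended on the probe set. Of the 15 largest rises, 8 had more than 1 probe set, and 5 moved by more than 1.5 times when probe sets were averaged: Slc4a4 to 1.91, Tmem140 to 1.93, Cystm1 to 1.87, Wnt9a to 1.68 and Sema4f to 1.75. Of the 15 largest falls, 7 of 9 with more than 1 probe set moved as far, namely Bcl11a to -1.35, Spon2 to -1.56, Maf to -0.74, Plxdc1 to -1.64, Egr3 to -1.33, Bcat1 to -0.93 and Gas1 to -1.61. Maf also lost its call (adjusted p = 0.0584 with limma). Signs were kept in these 12. Among the genes named further on, averaging ended the calls of Inhbb, Hes6, Plxnb1, Sema3e, Anxa2, Nol9, Lpl, Bcl2l1, Kcnq5, Rac1, Tgfa, Nrp1, Lrp6, P4ha1, Slc38a10, Sptlc1, Sptlc2, Ugcg, Cdh3, Csf1 and Serpinb1a. Over the 267 called genes that were named or stood on a list, 182 had more than 1 probe set. Averaging moved 96 of the 267 by more than 1.5 times, ended 32 calls and turned 0 signs, and 18 had a probe set past the filter with the opposite sign.

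**Figure D1:**
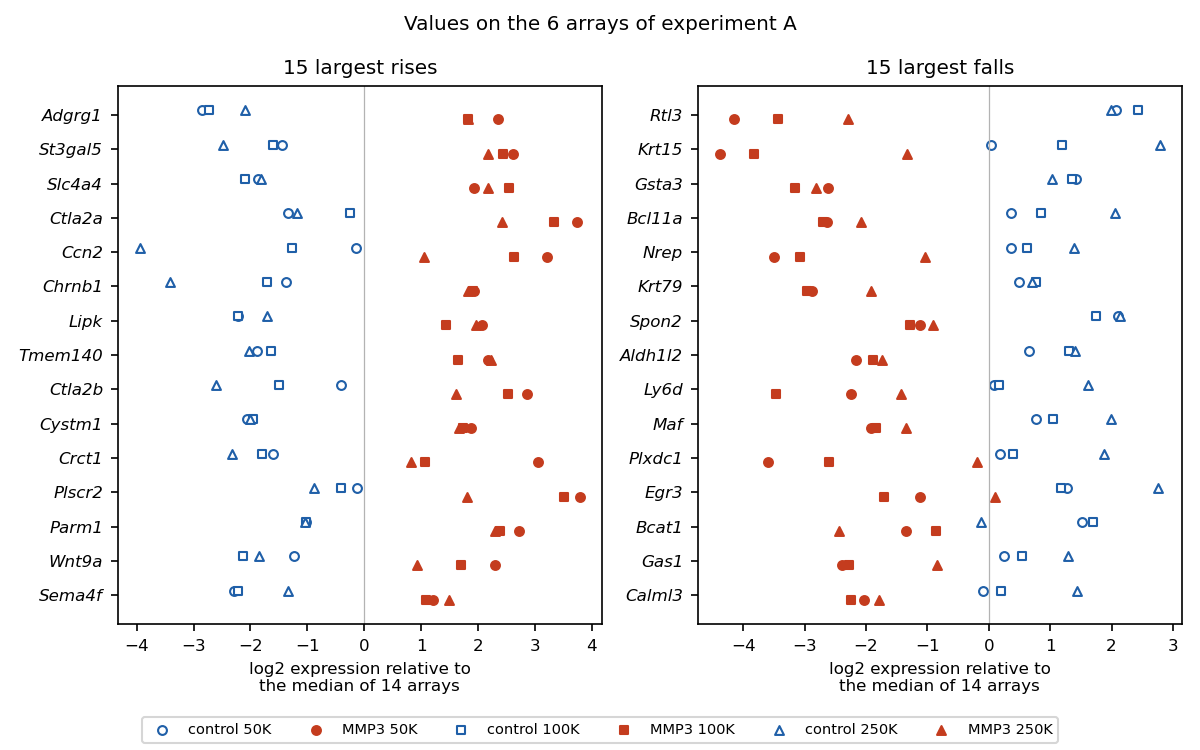
Values of the 15 genes with the largest rise (left) and the 15 with the largest fall (right) on the 6 arrays of experiment A. The horizontal axis is log2 expression relative to the median of 14 arrays, open blue symbols are control dishes and filled red symbols MMP3 dishes, and circles, squares and triangles stand for 50K, 100K and 250K. Every red symbol lies to the right of every blue one for the rises and to the left for the falls, as the choice of these genes required. Rtl3 has the widest gap, -5.46.

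Promoter windows of the risen and fallen genes were compared by the share that holds short motif letters. RefSeq windows of 300 bases, 250 before to 50 after the start, were found for 9561 tested genes on GRCm38.p6, 853 of them risen and 636 fallen after the interferon and junction genes were left out. A set of 15 motifs was searched on both strands. The GC box, GGGCGG, which Sp family factors bind, stood in 73.6% of the windows of risen genes, 68.2% of those of fallen genes and 64.3% of all windows. CCAAT, the letters bound by the factor NF-Y, stood in 47.8% of the windows of fallen genes, 36.2% of those of risen genes and 39.1% of all. The median GC content was 62.7% in the windows of risen genes, 61.0% in those of fallen genes and 61.0% in all, and its part in the shares was not tested.

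TTTGAA, the CHR element of cell cycle genes, stood in 14.5% of fallen, 8.56% of risen and 11.9% of all windows. GGAATG, the letters of TEAD factors, stood in 14.3% of risen, 8.49% of fallen and 11.9% of all, and the NF-kappaB motif in 12.5% and 7.23%, and in 958 of all 9561 windows. The interferon response element, ISRE, stood in 42.9% of the 56 windows of risen interferon and junction genes, in 3.28% of those of the other risen genes and in 2.9% of all. The letters of the HRE, ACGTG, lie inside those of the E-box, CACGTG, so that these 2 motifs overlap. A match shows only that the letters are there, and no test was made.

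**Figure D2:**
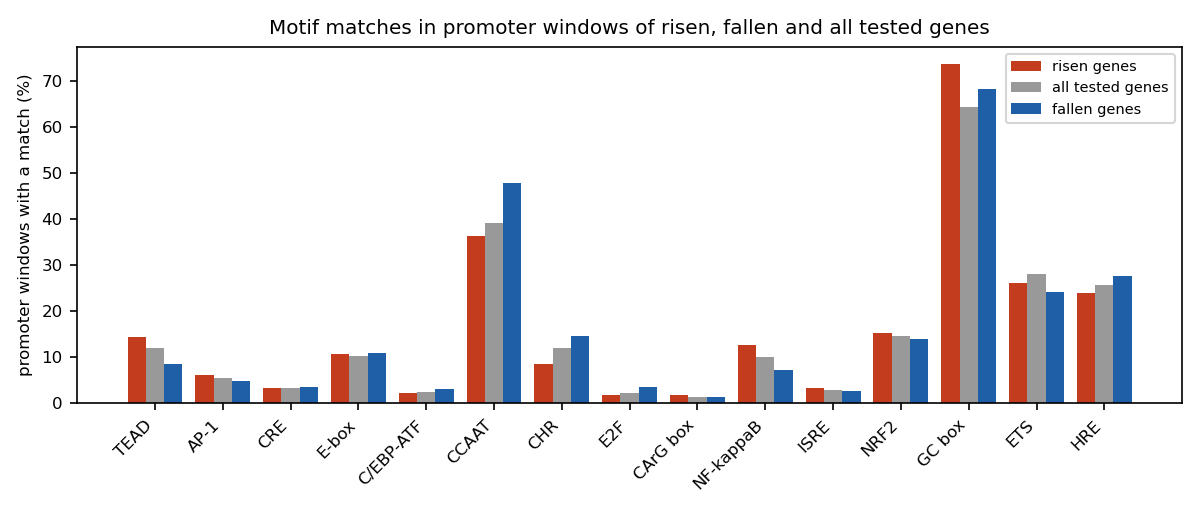
Share of promoter windows (percent, vertical axis, from 0) that hold each of 15 motifs, for risen genes (red), all tested genes (grey) and fallen genes (blue), with interferon and junction genes left out of the risen and fallen sets. The GC box bar of risen genes reaches 73.6% against 64.3% for all, and the CCAAT bar of fallen genes 47.8% against 39.1%.

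The windows of the genes with the largest change that hold the motif whose share stood furthest above that of all windows show what such a promoter looks like. Capitals mark the motif on either strand, so that CCGCCC is the GC box and ATTGG is CCAAT read on the other strand. The first 3 belong to risen genes and hold the GC box, St3gal5 at chr6:72097358-72097657 (plus strand), Slc4a4 at chr5:88887010-88887309 (plus strand) and Chrnb1 at chr11:69795888-69796187 (minus strand). The last 3 belong to fallen genes and hold CCAAT, Rtl3 at chrX:106840490-106840789 (minus strand), Gsta3 at chr1:21240335-21240634 (plus strand) and Bcl11a at chr11:24080445-24080744 (plus strand). All are RefSeq windows on GRCm38.p6, written 5′ to 3′.
St3gal5: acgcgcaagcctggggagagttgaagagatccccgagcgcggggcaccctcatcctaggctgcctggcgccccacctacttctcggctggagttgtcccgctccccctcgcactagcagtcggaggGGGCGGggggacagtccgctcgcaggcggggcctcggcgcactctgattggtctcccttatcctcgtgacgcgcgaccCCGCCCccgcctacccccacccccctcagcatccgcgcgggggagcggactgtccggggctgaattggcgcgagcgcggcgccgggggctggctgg
Slc4a4: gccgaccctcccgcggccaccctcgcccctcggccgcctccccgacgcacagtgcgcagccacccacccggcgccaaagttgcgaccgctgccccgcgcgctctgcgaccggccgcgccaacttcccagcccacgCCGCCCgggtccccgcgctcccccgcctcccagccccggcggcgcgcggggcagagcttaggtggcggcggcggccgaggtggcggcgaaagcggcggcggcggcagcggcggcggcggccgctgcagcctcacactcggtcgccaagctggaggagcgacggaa
Chrnb1: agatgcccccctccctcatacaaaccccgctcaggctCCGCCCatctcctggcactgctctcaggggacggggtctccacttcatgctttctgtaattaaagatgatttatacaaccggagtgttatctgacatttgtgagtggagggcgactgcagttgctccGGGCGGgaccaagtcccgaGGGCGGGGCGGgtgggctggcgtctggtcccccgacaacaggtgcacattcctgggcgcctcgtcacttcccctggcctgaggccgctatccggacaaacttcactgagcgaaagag
Rtl3: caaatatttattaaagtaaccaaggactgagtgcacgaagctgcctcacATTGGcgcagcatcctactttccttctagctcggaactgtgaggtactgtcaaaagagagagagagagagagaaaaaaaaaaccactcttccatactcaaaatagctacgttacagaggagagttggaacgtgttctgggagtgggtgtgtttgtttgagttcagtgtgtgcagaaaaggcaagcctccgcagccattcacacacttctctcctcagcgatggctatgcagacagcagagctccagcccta
Gsta3: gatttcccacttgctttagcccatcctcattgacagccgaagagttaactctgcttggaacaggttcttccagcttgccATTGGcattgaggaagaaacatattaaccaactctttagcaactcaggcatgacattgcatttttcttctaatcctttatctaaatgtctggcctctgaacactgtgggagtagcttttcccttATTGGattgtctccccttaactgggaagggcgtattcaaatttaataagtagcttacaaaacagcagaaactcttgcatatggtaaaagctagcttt
Bcl11a: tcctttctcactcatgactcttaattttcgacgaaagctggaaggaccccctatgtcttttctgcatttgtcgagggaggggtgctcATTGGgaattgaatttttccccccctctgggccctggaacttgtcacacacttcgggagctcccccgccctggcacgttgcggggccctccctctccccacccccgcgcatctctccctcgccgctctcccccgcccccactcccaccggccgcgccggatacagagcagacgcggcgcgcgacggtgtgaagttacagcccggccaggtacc
The window of Chrnb1 held 4 matches, those of St3gal5 and Gsta3 held 2, and the others 1. Capitals mark only that motif: in lower case the window of St3gal5 also held 2 matches of CCAAT and that of Bcl11a 2 of the GC box, and the other 4 windows held 0 of the motif not marked.

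Beyond the largest changes, 30 lists of genes were counted. For scale, 9.48% of all tested genes rose, 6.67% fell, and their median change was -0.02. These lists say how many members were called and no test was made over a list. With probe sets averaged, 1 gene fell in each of the EGF receptor and cytokine lists and 1 rose in the serine, glycine and one-carbon list, where 0 did otherwise.

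Of the ligands of the EGF receptor 4 rose. These growth factors are made as membrane proteins and released by cutting, and they drive growth and movement of mammary epithelium. Of 15 tested members of the EGF receptor list, 6 rose and 0 fell, with a median change of 0.47. Hbegf had values of 0.19, -1.92 and -2.17 in the controls and 2.22, 2.01 and 0.50 with MMP3, and rose by 2.88 (SE 0.44, adjusted p = 0.0446 with limma). Ereg stood at -0.30, -0.89 and -2.32 against 1.58, 1.44 and 0.40, a rise of 2.31 (SE 0.20). Btc was flat across density, at -1.38, -1.96 and -1.85 against 0.41, 0.58 and 0.43, a rise of 2.20 (SE 0.18). For Hbegf and Ereg the dish at 250K was the lowest of each agent, whereas Btc showed no such order. Tgfa rose by 0.60, and so did 2 genes that restrain the receptor, Lrig1 (1.21) and Errfi1 (0.76). The receptor gene Egfr itself had values of -0.13, 0.21 and 0.27 in the controls and -0.19, -0.16 and -0.02 with MMP3, a change of -0.24 that was not called (adjusted p = 0.172 with limma). Averaged over probe sets, the change of Tgfa was 0.19 and its call was lost (adjusted p = 0.0569 with limma), and 1 of its probe sets went the other way. The list median was then 0.19. Hbegf and Ereg had the opposite sign in every pair of B.

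Other growth factor receptors moved less evenly. In the FGF, PDGF, VEGF, HGF and IGF list 9 of 34 rose and 2 fell, with a median of 0.29. Axl, a receptor tyrosine kinase, had -0.66, -1.05 and -0.78 in the controls and 1.29, 0.95 and 1.01 with MMP3, a rise of 1.91 (SE 0.07). The decoy receptor Fgfrl1 rose by 1.46, the coreceptor Nrp1 by 1.43 and Igf2r, which clears IGF from the surface, by 0.91. Igfbp3, which binds IGF outside the cell, fell from 1.18, 1.03 and 1.03 to -0.86, -1.38 and -1.32, a change of -2.26 (SE 0.10). Vegfd, a lymphatic growth factor, fell by 1.95. Both falls were in genes of secreted proteins. With probe sets averaged the change of Axl was 0.98 and that of Nrp1 0.81, which was not called (adjusted p = 0.0835 with limma), and the list median was 0.14.

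Among TGF-beta and BMP genes 7 of 39 rose and 2 fell, with a median of 0.10. Bmp7, a secreted ligand, went from 1.05, 1.37 and 0.81 to -0.92, -1.14 and -0.67, a change of -1.98 (SE 0.24). Bmp1, a protease that processes procollagen, went the other way, from -1.14, -1.31 and -0.69 to 0.77, 0.58 and 0.79 (1.76, SE 0.12). Inhbb, a subunit of activin B, rose by 0.94, and the feedback genes Skil and Smad7 by 0.79 and 0.71. Skil values overlapped between the agents and were lower in the dish at 250K under each, and Bambi, a decoy receptor, fell by 0.55. Averaging of probe sets gave -1.06 for Bmp7, 0.78 for Bmp1 and 0.52 for Inhbb, the last not called (adjusted p = 0.0638 with limma), and 4 falls in the list.

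Of 38 Wnt genes 4 rose and 2 fell, a share near that of all tested genes, with a median of -0.01. Individual ligands moved in opposite directions. Wnt9a went from -1.23, -2.14 and -1.85 to 2.31, 1.71 and 0.92, and Wnt7b rose by 1.29. Wnt5a, which signals without beta-catenin in many cells, went from 0.09, 0.51 and 1.47 to -1.99, -1.08 and -0.87, a change of -2.01 (SE 0.18). The receptor gene Fzd5 rose by 1.59 and the coreceptor Lrp6 by 0.58, while the secreted inhibitor Sfrp1 fell by 1.06. Averaged over probe sets, Wnt5a changed by -0.93, Fzd5 by 0.80, Wnt7b by 0.64, Sfrp1 by -0.61 and Lrp6 by 0.30, which was not called (adjusted p = 0.0842 with limma). Notch genes showed 2 rises and 2 falls among 20, with a median of 0.10. The ligand Jag2 fell by 1.09 and the target Hey1 by 0.72, and Hes6 and the Notch inhibitor Numb rose by 1.40 and 0.83. One probe set of Numb went the other way and its averaged change was 0.41, and the averaged change of Hes6, 1.25, was not called (adjusted p = 0.0516 with limma).

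In the cytokine and JAK-STAT list 8 of 32 rose and 0 fell, with a median of 0.36. Il10rb, a receptor subunit shared by several cytokines, went from -1.04, -1.02 and -0.76 to 0.66, 0.57 and 0.54, a rise of 1.53 (SE 0.11). Il6st, the shared receptor chain gp130, went from -0.37, -0.48 and -0.96 to 0.88, 0.60 and 0.50 (1.26, SE 0.10), and its transcription factor Stat3 rose by 0.94. The growth hormone receptor Ghr rose by 1.14 and Il1r1 by 0.84. Lif, a ligand of gp130, rose by 0.99, but its control and MMP3 values overlapped. With the mean of probe sets the changes were 0.74 for Il10rb, 0.58 for Il6st, 0.54 for Stat3, 0.41 for Il1r1 and 0.49 for Lif, all still called, and the list median was 0.20.

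Guidance molecules are surface and secreted proteins that steer cell contact and movement. Of 15 Eph receptors and ephrins 3 rose and 1 fell. Efnb2 rose from -0.34, -0.40 and -0.92 to 1.35, 1.23 and 0.78 (1.67, SE 0.05), while its relative Efnb1 fell from 0.03, 0.30 and 0.77 to -1.13, -0.85 and -0.92 (-1.33, SE 0.15). Efna3 and the receptor Epha2 rose by 1.25 and 1.12. The size depended on the probe set: averaged changes were 0.76 for Efnb2, of which 1 probe set past the filter had the opposite sign, -0.73 for Efnb1 and 0.77 for Efna3, all called. For Efnb1, Efnb2 and Epha2 the sign was opposite in every pair of B. In the semaphorin list 6 of 33 rose and 1, Plxdc1, fell, with Sema4f, Plxnb1 (0.93) and Sema3e (0.90) leading the rises. The Plxnb1 call was lost when probe sets were averaged (adjusted p = 0.054 with limma), and so was that of Sema3e (adjusted p = 0.078).

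Rac1, whose splice form is tied to MMP3 in the literature on these cells, had -0.15, -0.18 and -0.07 in the controls and 0.47, 0.34 and 0.31 with MMP3. Its rise of 0.51 was called for the chosen probe set (adjusted p = 0.0402 with limma) but was 0.17 with adjusted p = 0.0835 for the mean of its probe sets. The array does not measure the splice form as such.

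Immediate early genes and ERK feedback genes were close to the background. Of 33 tested 3 rose and 2 fell, with a median of 0.09. Egr3 went from 1.27, 1.18 and 2.75 to -1.12, -1.70 and 0.10, and the ERK inhibitor Spred2 fell by 1.42. Plaur, the urokinase receptor and a target of ERK and AP-1, went from -0.10, -0.24 and -2.25 to 1.38, 1.31 and 0.10 (1.79, SE 0.23), and the phosphatase Dusp10 rose by 1.13 with overlapping values. Averaged changes were -0.48 for Spred2 and 0.54 for Dusp10. Plaur also had the opposite sign in every pair of B. Myc had -0.01, -0.05 and -0.07 in the controls and -0.43, -0.59 and -0.91 with MMP3, a change of -0.60 that just missed the threshold (adjusted p = 0.0588 with limma). Ccnd1 and Cdkn1a, a cyclin and a cyclin kinase inhibitor, changed by -0.05 and -0.21 with overlapping values and were not called.

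**Figure D3:**
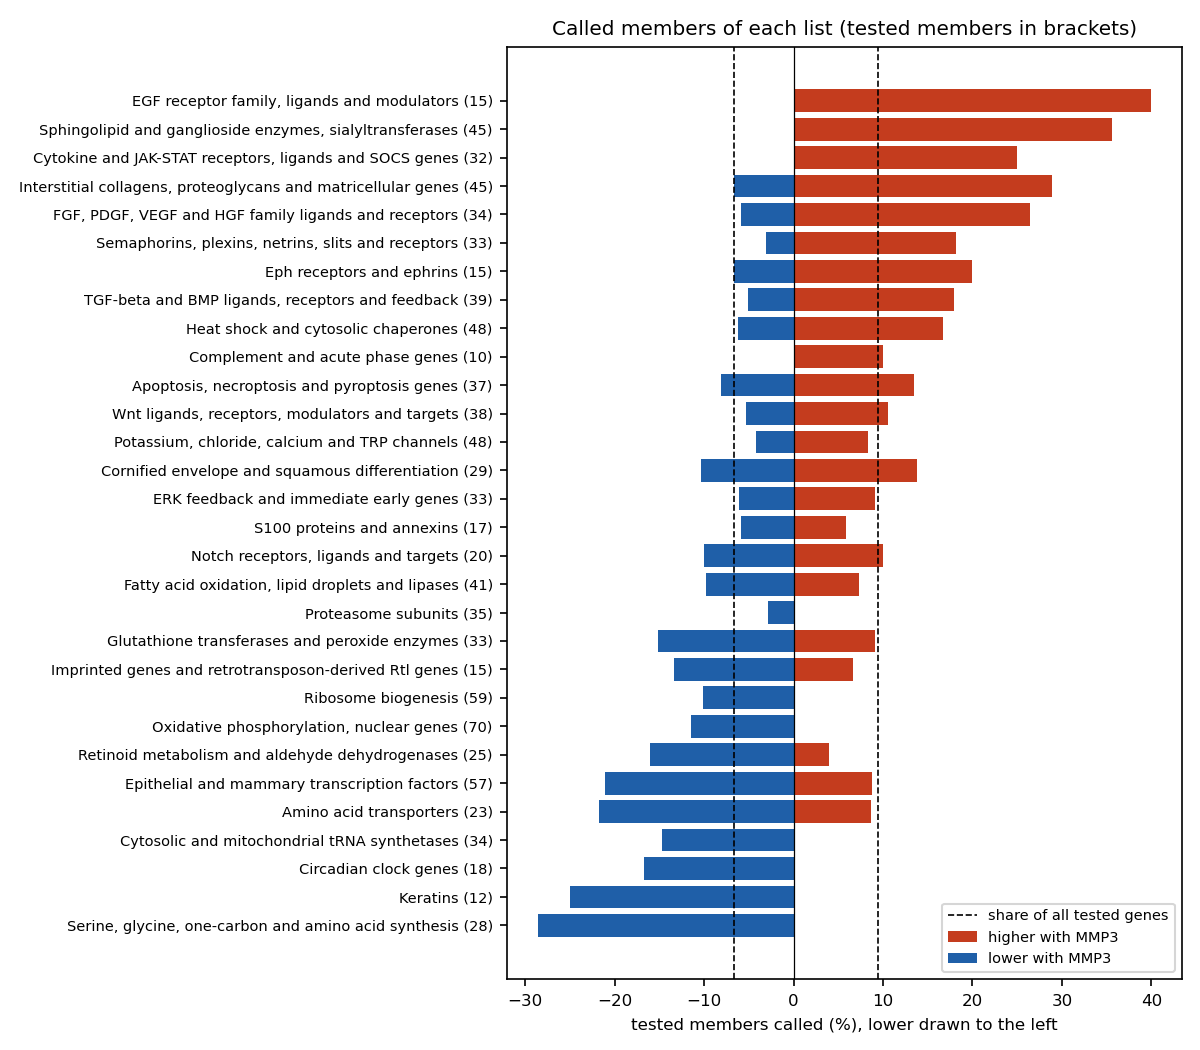
Share of tested members called higher (red, to the right) and lower (blue, to the left) in each of 30 gene lists, in percent, with the number tested in brackets. Dashed lines mark the shares of all tested genes, 9.48% and 6.67%. The EGF receptor and sphingolipid lists reach furthest to the right with 0 falls, and the serine, glycine and one-carbon list furthest to the left with 0 rises.

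Transcription factors of epithelial and mammary cells had 12 falls and 5 rises among 57 and a median of -0.15. Bcl11a and Maf led, followed by Bcl11b, the partner of Bcl11a, from 0.81, 0.92 and 1.27 to -1.34, -1.16 and -0.47 (-1.99, SE 0.11). Nfia fell by 1.63, Trp63, the master regulator of basal epithelium, by 1.44, and Cebpb by 1.24. The mean of probe sets gave -0.61 for Nfia and -0.84 for Trp63. Sox11 and Grhl3 were the largest rises, by 1.53 and 1.17, and the luminal factor Gata3 rose by 0.72. Esr1, the estrogen receptor, had control values of -1.23, -1.95 and -0.37 and MMP3 values near 0, and its change of 1.27 was not called (adjusted p = 0.126 with limma).

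Keratins form the filaments of epithelial cells. Only 12 of 37 keratin genes with a probe set passed the filter, and 3 of these fell and 0 rose, with a median of -0.31. Besides Krt15 and Krt79, Krt5, the basal keratin, fell from 0.76, 0.71 and 0.68 to -0.33, -0.37 and -0.27, a small but even change of -1.03 (SE 0.06). Its usual partner Krt14 was at 0.50, 0.17 and -0.11 against -0.01, -0.65 and 0.08, which overlap, and was not called. In the cornified envelope list 4 of 29 rose and 3 fell. Tgm2, a crosslinking enzyme, rose from -1.38, -1.35 and -0.82 to 1.02, 0.89 and 1.47 (2.31, SE 0.06, and 1.496 with probe sets averaged), and Pinlyp, a phospholipase inhibitor gene, by 2.94. Ly6d, Calml3 and Spink5 (-1.71), genes of stratified epithelium, fell. Of 17 S100 and annexin genes Anxa2 rose by 0.53 and S100a4 fell by 0.57.

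Matrix genes had 13 rises and 3 falls among 45 and a median of 0.12. Thbs1, a matricellular protein, went from -0.35, -1.57 and -2.70 to 2.46, 1.88 and 0.44, a rise of 3.13 (SE 0.16, adjusted p = 0.0218 with limma). Col8a1, a short-chain collagen, went from -0.08, -0.56 and -1.60 to 1.90, 1.47 and 1.02 (2.21, SE 0.17). Both declined with density under each agent, as Ccn2 did, and all 3 had the opposite sign in every pair of B. The syndecan Sdc4, a heparan sulfate receptor, rose by 1.97, and Fbln5, Gpc3 and Gpc4 by 1.65, 1.47 and 1.45. Enzymes that modify collagen split: Plod2 and Plod1 rose by 1.51 and 1.27 and P4ha2 by 0.72, while P4ha1 fell by 0.93. The averaged changes were 0.64 for Plod1, 0.82 for Fbln5 and -0.46 for P4ha1, which was then not called (adjusted p = 0.0558 with limma) and had 1 probe set of the opposite sign. Spon2 and Col11a1 (-1.11) were the other falls.

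The list of sphingolipid enzymes and sialyltransferases had the most rises in number. Sphingolipids are membrane lipids built on ceramide, gangliosides are their sugar-bearing forms, and sialyltransferases cap lipid and protein sugars with sialic acid. Of 45 tested members 16 rose and 0 fell, 39 had a positive change, and the median was 0.56. It was 0.50, 0.54 and 0.70 in the pairs at 50K, 100K and 250K, against -0.02, -0.02 and -0.01 for all tested genes. St6gal1, which adds sialic acid to glycoproteins, went from -0.74, -0.62 and -0.27 to 1.69, 2.10 and 1.81 (2.41, SE 0.15). Sgms2, a sphingomyelin synthase, went from -0.99, -0.88 and -1.43 to 0.84, 0.93 and 0.95 (2.01, SE 0.15). Gm2a, the activator that presents gangliosides for breakdown in lysosomes, went from -1.25, -1.34 and -0.41 to 0.56, 0.76 and 1.24 (1.85, SE 0.11). These genes, like St3gal5, were higher with MMP3 in each pair. The mean of probe sets gave 1.20 for both St6gal1 and Sgms2, and 17 rises, 0 falls and a median of 0.40 for the list.

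Steps from the start to the end of the pathway were among the rises. Sptlc1 and Sptlc2, subunits of the first enzyme, rose by 0.80 and 0.86, the desaturase Degs1 by 0.45, and the ceramide synthases Cers3 and Cers6 by 1.31 and 0.56. Ugcg, which makes glucosylceramide, rose by 1.06, and Sgms1 by 0.89. On the side of breakdown the sphingomyelinase Smpd1 rose by 1.20, the ceramidase Asah1 by 0.54, the hexosaminidase subunit Hexa by 0.68, the sphingosine kinase Sphk1 by 1.19 and the lyase Sgpl1 by 0.80. With probe sets averaged, Sptlc1 (0.44, adjusted p = 0.0681 with limma), Sptlc2 (0.54, adjusted p = 0.0774) and Ugcg (0.56, adjusted p = 0.0507) were not called, 1 probe set of Ugcg had the opposite sign, and Sphk1 and Sgpl1 changed by 0.76 and 0.40. St6gal1 and Sgms2 had the opposite sign in every pair of B.

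**Figure D4:**
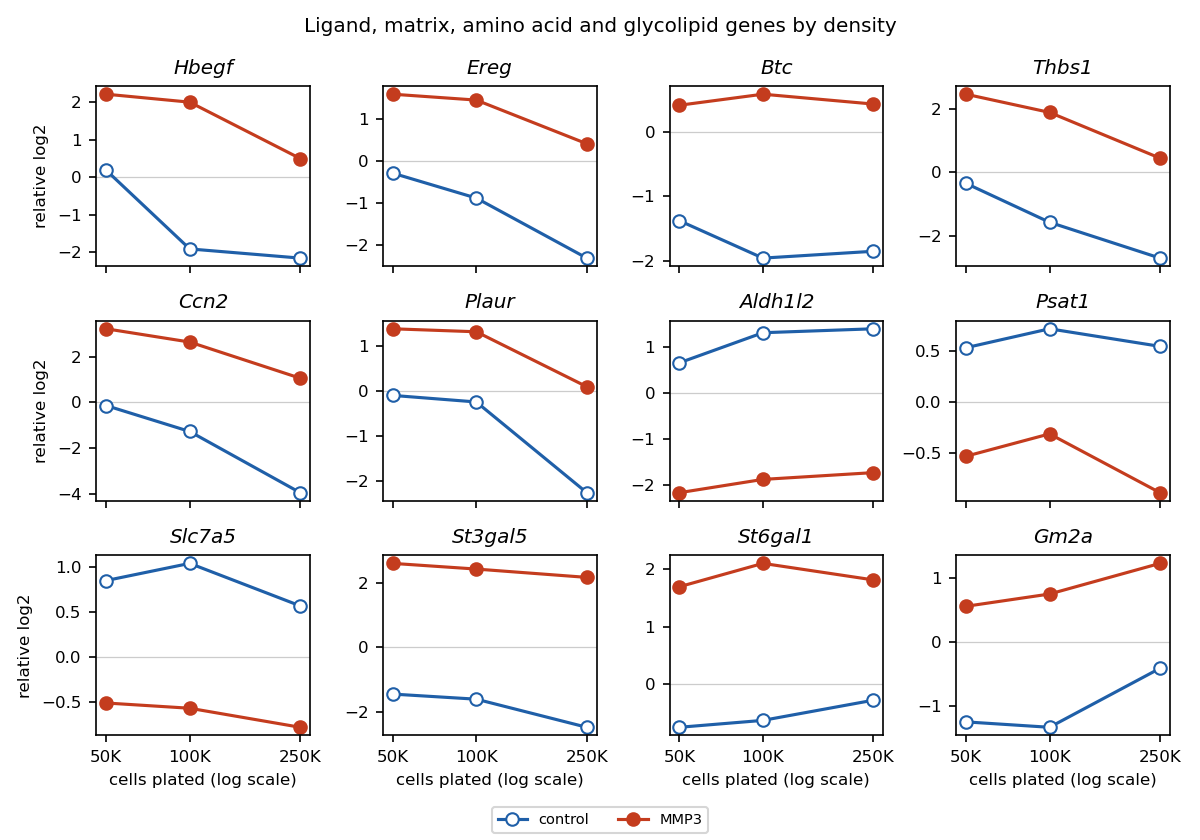
Log2 expression relative to the median of 14 arrays (vertical axis) against cells plated (horizontal, log scale) for 12 genes, open blue circles for control dishes and filled red circles for MMP3 dishes, 1 dish per point. Hbegf, Ereg, Thbs1, Ccn2, Plaur, St3gal5 and Slc7a5 are lowest at 250K under both agents. MMP3 minus control at 50K, 100K and 250K was 1.79, 2.54 and 2.28 for Btc and -2.83, -3.19 and -3.13 for Aldh1l2.

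Serine and glycine feed one-carbon groups to folate for nucleotide synthesis, and many of these genes share control by ATF4. In this list 0 of 28 rose and 8 fell, 24 changes were negative, and the median was -0.57. It was -0.41, -0.49 and -0.75 in the pairs at 50K, 100K and 250K. Gpt2, a transaminase, went from 0.56, 0.998 and 0.70 to -1.27, -1.23 and -0.65 (-1.80, SE 0.21). Psat1, of serine synthesis, went from 0.54, 0.72 and 0.55 to -0.53, -0.31 and -0.89 (-1.18, SE 0.11). Asparagine synthetase Asns fell by 1.14, the mitochondrial folate enzymes Mthfd2 and Mthfd1l by 1.04 and 0.59, and Psph by 0.88, next to Aldh1l2 and Bcat1 named above.

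Amino acid transporters had 5 falls and 2 rises among 23. Slc7a5, the carrier of large neutral amino acids, went from 0.85, 1.04 and 0.57 to -0.51, -0.57 and -0.78 (-1.44, SE 0.08), and its partner chain Slc3a2 fell by 0.87. The cystine carrier Slc7a11 fell by 1.15, the glycine carrier Slc6a9 by 1.07 and the glutamine carrier Slc1a5 by 0.91. Both rises, in Slc38a10 and Slc36a1, were below 0.5 on the log2 scale, at 0.47 and 0.46. Averaging left Slc38a10 not called (0.17, adjusted p = 0.0727 with limma), with 1 probe set of the opposite sign, and Slc6a9 at -0.64. The list median was -0.02, the same as that of all tested genes.

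Called genes of translation had small changes, and most members of both lists were not called. Among tRNA synthetases 5 of 34 fell and 0 rose, 28 had a negative change, and the median was -0.25. Aars went from 0.06, 0.36 and 0.41 to -0.53, -0.58 and -0.58 (-0.84, SE 0.11), and Gars fell by 0.83, Farsb by 0.66, Tars2 by 0.63 and Tars by 0.36. For ribosome biogenesis 10.2% were called, all of them falls, where 16.2% of all tested genes were called and 6.67% fell. In this list 6 of 59 fell and 0 rose, with a median of -0.13. That median was not stable across density, at -0.34 and -0.19 in the pairs at 50K and 100K and 0.22 at 250K. Nol9, Nob1 and Polr1c fell by 1.05, 0.87 and 0.84, and the Nol9 call was lost with the mean of its probe sets (adjusted p = 0.111 with limma).

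Mitochondrial respiration showed 8 falls and 0 rises among 70 nuclear genes, with a median of -0.11. That is 11.4% called, all of them falls, where 16.2% of all tested genes were called and 6.67% fell. The largest fall was that of Uqcrc1 of complex III, from 0.62, 0.69 and 0.37 to -0.01, -0.10 and -0.08 (-0.62, SE 0.09). Ndufa5, Ndufb6 and Ndufv1 of complex I fell by 0.54, 0.49 and 0.49, all well under 2-fold. Ppargc1b, a coactivator of mitochondrial genes, fell by more, from 0.83, 1.56 and 1.31 to -1.10, -1.08 and -1.001 (-2.30, SE 0.17). In lipid use 3 of 41 rose and 4 fell. Plin2, the coat protein of lipid droplets, rose from -0.23, -0.46 and -0.82 to 1.09, 0.87 and 0.66 (1.38, SE 0.06) and the lipase Pnpla2 by 0.90, while Lpl, the lipoprotein lipase, fell by 1.44. Averaged changes were 0.44 for Pnpla2 and -0.88 for Lpl, the latter not called (adjusted p = 0.052 with limma).

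Among glutathione transferases and peroxide enzymes 3 of 33 rose and 5 fell. The falls were in the alpha class genes Gsta3, Gsta2 (-1.46) and Gsta4 (-0.55), in Gstz1 of the zeta class (-0.65) and in the peroxiredoxin gene Prdx4 (-0.54, and -0.23 with probe sets averaged). The rises were in the mu class genes Gstm5 (2.42) and Gstm2 (0.82) and in the peroxidase gene Gpx1 (0.49). The other 4 of 6 tested mu class genes were not called, with changes of -0.90 for Gstm1, -0.02 for Gstm3, -0.05 for Gstm4 and 0.33 for Gstm7. Gstm5 values were -2.02, -1.68 and -1.10 in the controls and 1.03, 0.77 and 0.66 with MMP3. Members of a class have similar sequences and their probe sets may share signal. Of 25 retinoid and aldehyde enzymes 4 fell and 1 rose. Adh7 went from 0.73, 0.75 and 0.77 to -1.07, -1.18 and -1.25 (-1.91, SE 0.07), Aldh3a1 fell by 1.23 and Aldh9a1 by 0.52, and Aldh3a2 rose by 0.74.

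Chaperones, channels and death genes gave a few even changes. Of 48 chaperone genes 8 rose and 3 fell, with a median of 0.02. Cryab, a small heat shock protein, rose from -0.92, -0.92 and -1.73 to 0.89, 0.62 and 0.51 (1.86, SE 0.17), and Dnaja4 by 1.66, Hspa2 by 1.37 and Dnajc3, of the endoplasmic reticulum, by 1.34. Among 35 proteasome subunits Psmd5 fell by 0.51 and 0 rose. Clu, a secreted chaperone, was the only call among 10 complement and acute phase genes, from -1.40, -1.46 and -1.002 to 1.26, 0.76 and 1.33 (2.40, SE 0.11). Of 37 genes of apoptosis and related death 5 rose and 3 fell. Bid, which promotes death, rose by 1.15, and Bcl2l1 and Cflar, which oppose it, by 0.91 and 0.84, so the rises did not share a direction in function. Averaged over probe sets, Cryab changed by 1.08, Dnaja4 by 0.90, Cflar by 0.51 and Bcl2l1 by 0.22, which was not called (adjusted p = 0.0572 with limma).

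Among 48 channel genes 4 rose and 2 fell, or 12.5% called against 16.2% of all tested genes. Piezo1, a channel opened by stretch, went from -0.17, -0.64 and -1.14 to 1.13, 0.98 and 0.79 (1.62, SE 0.15), and the store-operated calcium channel Orai1 rose by 1.33. The potassium channel genes Kcnh1 and Kcnq5 fell, with changes of -2.07 and -1.77. One of the probe sets of Kcnq5 had the opposite sign and its averaged change, -1.01, was not called (adjusted p = 0.0511 with limma). Piezo1 and Orai1 had the opposite sign in every pair of B. Of 18 clock genes Tef, Ciart and Cry1 fell by 1.06, 0.94 and 0.51 and 0 rose. This called share of 16.7% was near that of all tested genes. Of 15 imprinted and retrotransposon-derived genes Rtl3 and Plagl1 (-1.56) fell and Igf2r rose. Averaged changes were -0.54 for Plagl1 and -0.50 for Tef, and 5 clock genes fell.

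Markers of cell types were counted to check the label and to look for other cells. Of 12 luminal markers 4 were tested and 3 rose, Epcam by 1.18, Cdh1, which encodes E-cadherin, by 0.89 and Gata3 by 0.72. Their mean was between -0.35 and -0.28 in the controls and between 0.35 and 0.44 with MMP3. Of 12 basal markers 10 were tested, Cdh3 rose by 0.58 (0.34 and not called with probe sets averaged, adjusted p = 0.0627 with limma), and Krt5 and Trp63 fell. Of the 10, 5 had a positive and 5 a negative change, with a median of -0.12. Their mean was between 0.12 and 0.31 in the controls and between -0.13 and 0.22 with MMP3, which overlap. Since levels are not known, these values show differences only, and the epithelial label could not be checked against levels. Of 14 leukocyte markers 5 were tested and 0 were called, with means between 0.03 and 0.36 in the controls and between -0.03 and 0.00 with MMP3. Of 11 fibroblast markers 3 were tested and Postn rose by 0.95. The other 2 had negative changes, the lowest -0.90, and were not called. The mean of the 3 was between -0.17 and 0.69 in the controls and between 0.06 and 0.31 with MMP3. The single endothelial and single adipocyte marker tested were not called. Mmp3 and Krt8 did not pass the filter and were not tested.

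Last, the size of the MMP3 effect was set against density by the product of agent and log2 density. At an adjusted p under 0.05 limma called 0 genes (0.0%), with 1410 genes at an unadjusted p under 0.05 (11.9%) and a smallest adjusted p of 0.405. The counts were also 0 with robust eBayes, without the filter, with density as a factor and with arrays centred. Differences of at least 2-fold between agents were found in 1125 genes at 50K, 941 at 100K and 1921 at 250K, each from 1 pair of dishes and with no test. The control array at 250K had an SD over probe sets of 0.396, against 0.250 to 0.293 for the other arrays of A. Its part in the count at 250K was not tested.

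The 6 genes with the smallest p are described without a call. Slc6a2, a noradrenaline transporter, had control values of -0.41, 1.42 and 3.77 and MMP3 values of -0.91, -0.85 and -0.44. Angptl6, a secreted angiopoietin-like protein, had -0.84, 0.61 and 2.703 against -1.02, -0.75 and -0.76. Cbs, an enzyme that makes cystathionine, had 0.61, 1.67 and 2.96 against -0.22, -0.21 and -0.11. In all 3 the controls were higher at each step of density and the MMP3 dishes stayed level, with changes of effect of -1.59 (SE 0.08), -1.42 (SE 0.08) and -0.96 (SE 0.05) per doubling of cells. Cald1, an actin-binding protein, crossed over, with -1.54, -0.93 and -0.17 in the controls and 0.78, -0.09 and -1.53 with MMP3. Stbd1, a glycogen-binding protein, went from -1.03 to 1.03 in the controls and from 0.08 to -0.52 with MMP3, and Tprn had the opposite slope, 0.75 per doubling (SE 0.05).

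**Figure D5:**
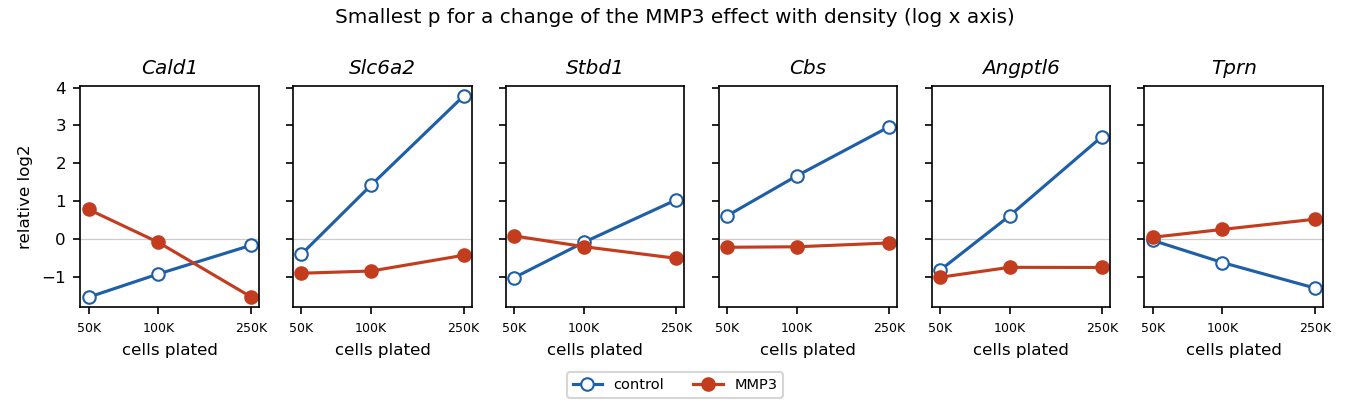
Log2 expression relative to the median of 14 arrays (vertical axis) against cells plated (horizontal, log scale) for the 6 genes with the smallest p for a change of the MMP3 effect with density, open blue circles for control and filled red circles for MMP3, 1 dish per point. None was called, and the lines of Slc6a2, Cbs and Angptl6 part as density rises, from -0.41 to 3.77 in the controls of Slc6a2.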

How the data were processed

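RNA of 14 dishes was measured on 1 array each, and the 6 arrays of experiment A enter the comparisons. The deposited table holds expression values, taken here as log2. The authors used RMA according to the submitters' processing notes, where no version is given. Each of its 45101 probe sets had a median of 0 over the 14 arrays, within 1e-06, a centring no source used here mentions. No source gives the log base either, so folds rest on RMA's usual base 2. Values ran from -7.18 to 6.62. No scanner files were used here, so signal over background is unknown.

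Of 45037 probe sets that are not controls, 34945 had 1 gene symbol in the platform annotation, 932 had several and 9160 had none. Symbols were updated through Entrez identifiers for 34741 and kept for 204. For each of 18193 genes the most variable probe set over the 14 arrays was kept, and 11812 genes whose SD there reached the 40th percentile of probe sets (0.049) were tested.

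limma 3.58.1 in R 4.3.3 (lmFit, eBayes) fitted agent and density as factors, with 2 residual degrees of freedom and a prior of 1.17, and Benjamini-Hochberg adjustment with a threshold of 0.05. The pairing comes from the labels, which match dishes of both agents by density. Without that replicate block and with log2 density as a covariate, 1521 genes were higher and 1142 lower. The test on the product of agent and centred log2 density also had 2 residual degrees of freedom. The scripts were tested on simulated data.

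The 31 gene lists and 6 marker lists hold 1531 genes from general knowledge, 1437 with a probe set and 1069 tested, 29 of them matched through RefSeq synonyms, and 1 gene list is not reported here. Members and lists were chosen with earlier results of these data known. Genes named were the 15 largest rises and 15 largest falls among called genes whose groups did not overlap, with interferon, antigen-presentation, junction and provisional symbols left out, the most changed called members of each list (up to 4), the 6 smallest p for the product, and Rac1, Mmp3, Egfr, Myc, Ccnd1, Cdkn1a, Krt8, Krt14 and Esr1. This gave 140 genes. Another 24, the next 15 rises and falls not yet named, and list members given with a change alone were added after their values were seen. Promoter sequences are RefSeq windows on GRCm38.p6, the first listed for each gene.

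Alternatives were the density term, the filter, the probe set, centring of arrays, robust eBayes, all 14 arrays, and each pair or array left out.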

Additional observations from a re-analysis of the deposited data

Results flagged for a closer look

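For 41 of the genes named, the difference between MMP3 and control dishes had one sign in each of the 3 pairs of experiment A and the opposite sign in each of the 4 pairs of experiment B. Of these, 27 were higher with MMP3 in A and 14 were lower. The difference between the experiments was not tested. Over all called genes, 487 of 1908 showed this pattern, and 294 had the same sign in all 7 pairs. Neither share was counted over all tested genes, so these counts do not set the named or the called genes apart. In each pair of B both arrays correlated with the effect of A with the same sign. Arrays of B labelled control 50K, control 250K, MMP3 25K and MMP3 100K went against their label relative to A, and the array labelled MMP3 100K had an SD over probe sets of 0.869 against 0.232 to 0.412 for the other 7 of B. Their part in these values was not tested.

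Values in brackets are mean log2 differences of MMP3 minus control over the 4 pairs of B. Genes higher with MMP3 in A and lower in B included the growth factor and cytokine genes Hbegf (-2.27), Ereg (-2.34), Axl (-0.29), Lif (-1.08) and Csf1 (-1.41), and the matrix and protease genes Ccn2 (-3.40), Thbs1 (-2.32), Col8a1 (-1.94), Sdc4 (-0.62), Adam12 (-1.85) and Plaur (-1.79). Ccn2 differences in single pairs of B lay between -6.46 and -1.46. Guidance genes were Efnb2 (-0.72), Epha2 (-1.36) and Sema3e (-0.96), lipid genes St6gal1 (-0.61), Sgms2 (-0.69) and Plin2 (-0.43), and channel genes Piezo1 (-0.61), Orai1 (-0.63) and Chrnb1 (-1.71). The remaining genes of this kind were Arhgap28 (-0.87), Cryab (-0.47), Dnajc3 (-0.33), Anxa2 (-0.27), Ctla2b (-2.50), Cystm1 (-0.38) and Tmem140 (-0.33).

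Genes lower with MMP3 in A and higher in B were the transcription factor genes Bcl11a (1.27), Plagl1 (0.96) and Tef (0.96) and the surface protein genes Ly6d (1.83), Plxdc1 (2.67), Jag2 (0.41), Efnb1 (0.59) and Fat2 (1.43). Genes of enzymes and other proteins were Cbs (1.21), Aldh9a1 (0.36), Aars (0.34), Polr1c (0.29), Psmd5 (0.22) and Angptl6 (1.55), of which Cbs and Angptl6 were not called in A. Plxdc1 was higher in single pairs of B by between 1.25 and 4.14.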

How the results depend on the processing

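The main counts were 1120 genes higher and 788 lower with MMP3. With log2 density and its product with agent in place of the replicate block by density they were 1716 and 1244. With all 14 arrays they were 159 and 189, and without the filter 423 and 264. The fit of all 14 arrays also held experiment, and had log2 density and its product with agent in place of density as a factor. Leaving out 1 pair or 1 array gave between 0 and 1274 genes higher and between 0 and 936 lower. The lowest counts came without any 1 pair, where 1 residual degree of freedom was left. Among single arrays, fitted without the block and with log2 density as covariate, leaving out control 50K gave 312 and 135, control 100K 369 and 165, and MMP3 50K 620 and 349, and 489 genes were lower without MMP3 250K. Other settings stayed within 1.5 times, including 1048 and 664 with density left out, and 934 and 633 with robust eBayes. The count for a change of the effect with density was 0 under each alternative run, with between 1288 and 1493 genes at an unadjusted p under 0.05.

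Calls of single genes depended on the setting. Of the 164 genes chosen for naming, of which 152 were called, 99 lost the call without the filter, 16 with robust eBayes, 29 with density left out and 13 with probe sets averaged. With all 14 arrays 134 lost it with the sign kept, and a further 15, not among the 134, changed sign: Ccn2 to -0.054, Plxdc1 to 0.26, Ereg to -0.20, Skil to -0.27, Plaur to -0.15, Dusp10 to -0.046, Lif to -0.20, Epha2 to -0.26, Sema3e to -0.012, Col8a1 to -0.045, Bid to -0.031, Tef to 0.089, Cald1 to -0.81, Stbd1 to 0.11 and Cdkn1a to 0.19. Of these 15, all but Cald1, Stbd1 and Cdkn1a were called in the main fit. The cause of the losses and changes in sign was not tested. With 1 pair or array left out, the changes of 4 genes that were not called crossed 0: Cald1 ranged from -0.26 to 1.58, Stbd1 from -0.83 to 0.49, Ccnd1 from -0.21 to 0.0605 and Cdkn1a from -0.68 to 0.13. Signal over background is not known, so genes near background could not be told apart from genes that did not change.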

Other observations

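The genes that rank just after those described above, added after their values were seen, are given here. Csf1, the growth factor of macrophages, had relative log2 values of -1.17, -1.33 and -1.44 in the controls at 50K, 100K and 250K and 2.39, 2.05 and 0.91 with MMP3, a rise of 3.10 (SE 0.30, adjusted p = 0.0267 with limma) that was 1.22 and not called with probe sets averaged (adjusted p = 0.0527). Mia, a small secreted protein, went from -1.29, -1.55 and -0.86 to 0.86, 2.18 and 2.63, a rise of 3.13 (SE 0.39), and it was higher with MMP3 in denser dishes. Tcn2, the carrier of vitamin B12 in plasma, rose by 3.09 and stood highest in the MMP3 dish at 250K, at 2.41. Slpi, an inhibitor of serine proteases, rose by 2.92, the transmembrane serine protease gene Tmprss11e by 2.73, and the metalloprotease gene Adam12 by 2.79 (SE 0.06), from 0.00, -0.06 and -1.41 to 2.81, 2.64 and 1.44. Vasn, which binds TGF-beta, rose by 2.68 and Nebl, which binds actin, by 3.01. Helz2, Rhpn2, Pstpip2 and Tmem106a rose by 3.07, 2.89, 2.68 and 2.96. With probe sets averaged the changes were 1.52 for Tcn2, 1.82 for Nebl, 1.69 for Rhpn2 and 1.39 for Adam12, of which 1 of 2 probe sets had the opposite sign, and all 4 were still called.

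The falls that rank next were also added after their values were seen. Gli1, a transcription factor and target of Hedgehog signalling, went from 0.93, 1.497 and 1.64 to -0.72, -1.41 and -0.39 (-2.20, SE 0.30, adjusted p = 0.0385 with limma). Aspm, a spindle protein, went from 1.30, 1.67 and 1.76 to -1.14, 0.12 and -1.36 (-2.37, SE 0.36), with the MMP3 dish at 100K apart from the other two, and Psrc1, also of the spindle, fell by 2.25 (-0.78 with probe sets averaged). Arrdc3, an arrestin-like protein, fell by 2.40 with SE 0.05, from 0.91, 1.32 and 2.16 to -1.46, -1.05 and -0.30. Trib3, a pseudokinase induced by ATF4, fell by 2.17, from -0.12, 0.99 and 0.94 to -1.75, -1.39 and -1.55. The atypical cadherin gene Fat2 (-2.28), Cables1 (-2.27), the calcium sensor gene Vsnl1 (-2.27), Rgs2 (-2.20), Scml2 (-2.19), Ndrg1 (-2.09) and the serpin gene Serpinb1a (-2.38) fell as well, and Serpinb1a was not called with probe sets averaged (adjusted p = 0.0671 with limma).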
